A study of Mus musculus with 24 samples.

Results

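The genes described here make fatty acids from carbohydrate in mouse liver, with Scd1, which puts the double bond into the product. They were taken by symbol from a table of gene-level TPM (a measure of how much of a library's transcripts belongs to each gene, corrected for transcript length): Scd1, Fasn, Acaca, Acly, Elovl6, Me1, Thrsp, Srebf1, Mlxipl and Pklr. These are 10 of 34945 named genes. All 10 were found, and all 10 had a mean of at least 1 TPM over the libraries, which was the condition for testing and left 10551 genes.

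Liver RNA from 24 libraries was compared in 8 groups of 3. The LFKO livers are labelled FoxO1-/-, the LPKO livers PPARα-/-, the LFPKO livers FoxO1-/- and PPARα-/-, and the floxed WT livers FoxO1lox/lox with PPARαlox/lox. The deletions were made with an Albumin-cre transgene, which is active in hepatocytes. Which other liver cells keep both genes was not measured here. No Cre is named for the WT livers. Each genotype was kept on a high-fat diet (HFD) or a regular diet (RD) for 3 weeks, and all animals were fasted for 4 h. Age and sex are not given in the labels used here. Replicates carry numbers, but nothing in the labels ties each to an animal of its own, and p-values therefore cover only the spread among these libraries, which may be technical.

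In de novo lipogenesis, glycolysis feeds pyruvate into mitochondria, citrate leaves them, and ATP citrate lyase (Acly) turns it into acetyl-CoA. Acetyl-CoA carboxylase 1 (Acaca) makes malonyl-CoA, fatty acid synthase (Fasn) builds palmitate with NADPH from malic enzyme (Me1) and other sources, Elovl6 lengthens palmitate to stearate, and stearoyl-CoA desaturase 1 (Scd1) makes palmitoleate and oleate. In liver the pathway is switched on after feeding by insulin, largely through SREBP-1c, a product of Srebf1, and by glucose through ChREBP, the product of Mlxipl. FoxO1 is a transcription factor that insulin holds out of the nucleus, and PPARα is a nuclear receptor that drives fatty acid oxidation in fasting.

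Foxo1 stood at no more than 0.484 TPM in the 12 LFKO and LFPKO libraries and at no less than 4.06 TPM in the other 12. Ppara, at 57.5 to 87.3 TPM in the libraries labelled LPKO or LFPKO and 37.1 to 68.8 TPM in the others, was not lower in libraries labelled as lacking it; which exons were deleted is not stated in the labels used here, and Ppara checks no label. The correlation of log2(TPM + 1) across genes between libraries of a group was 0.970 to 0.991, and 9749 to 10937 genes per library reached 1 TPM. Depth cannot be read from TPM and is unknown here. On the first principal component of log2(TPM + 1), the axis of largest spread (34.0% of the variance), RD libraries lay at 7.91 to 32.0. HFD LFKO replicates 1, 2 and 3 lay at -22.0, 3.53 and 14.9, and the other HFD libraries at -43.7 to -10.2. Mup transcripts, which encode major urinary proteins, took 20.1% to 30.7% of the TPM in HFD WT livers and 7.99% to 11.7% in RD WT livers; since TPM is a share, what Mup transcripts take is not left to other genes. HFD WT replicate 2 held the largest Mup share of the 24 libraries. Values after median-of-ratios scaling, which brings the median change of all genes near 0, are therefore given beside the results that it moved across the threshold and beside some others. Summed hepatocyte markers (10 of 10 tested) were 43074 to 56710 TPM in HFD WT livers and 74563 to 77527 TPM in RD WT livers. Adipocyte markers summed to 1.42 to 12.5 TPM over all libraries, with Lep at 0 in every library and Adipoq at no more than 0.126 TPM. Only 1 of these 6 markers was tested, Adrb3, at 1.19 to 12.0 TPM. The others reached at most 0.946 TPM (Cfd).

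Promoter windows from RefSeq (GRCm38.p6, 250 bases before to 50 after a transcription start) were found for 9 of the 10 genes, 14 windows in all, and Scd1 had none. The 5 windows printed here are a selection from genes with calls, and each holds a match. The windows of Acaca, which held none of the elements searched, and of Acly are not printed. Capitals mark matches, on either strand, to the FoxO element GTAAACA, the CCAAT box CCAAT and the GC box GGGCGG, and overlapping matches run together. Windows for Srebf1 and Me1 are 1 of 3 and 1 of 2, and gene-level TPM does not show which start was used. Which Srebf1 window serves SREBP-1c was not determined here.
Srebf1, chr11:60220578-60220877, minus strand: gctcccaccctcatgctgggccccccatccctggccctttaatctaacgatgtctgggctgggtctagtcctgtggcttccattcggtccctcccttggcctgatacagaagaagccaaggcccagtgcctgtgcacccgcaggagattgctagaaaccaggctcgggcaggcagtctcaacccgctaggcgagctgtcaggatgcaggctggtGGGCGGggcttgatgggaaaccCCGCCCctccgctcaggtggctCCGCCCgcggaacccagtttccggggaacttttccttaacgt
Thrsp, chr7:97417501-97417800, minus strand: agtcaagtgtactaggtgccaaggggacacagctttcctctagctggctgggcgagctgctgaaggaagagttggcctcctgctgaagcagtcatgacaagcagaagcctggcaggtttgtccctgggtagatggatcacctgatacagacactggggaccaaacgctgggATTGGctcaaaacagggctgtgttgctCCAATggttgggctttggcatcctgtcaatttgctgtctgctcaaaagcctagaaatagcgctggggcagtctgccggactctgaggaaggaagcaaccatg
Me1, chr9:86695865-86696164, minus strand: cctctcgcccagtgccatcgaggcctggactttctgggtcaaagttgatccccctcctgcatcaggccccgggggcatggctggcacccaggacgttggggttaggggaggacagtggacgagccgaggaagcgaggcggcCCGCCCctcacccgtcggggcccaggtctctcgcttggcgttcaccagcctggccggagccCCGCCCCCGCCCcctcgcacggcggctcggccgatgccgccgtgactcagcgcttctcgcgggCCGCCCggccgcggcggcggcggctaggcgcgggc
Fasn, chr11:120824498-120824797, minus strand: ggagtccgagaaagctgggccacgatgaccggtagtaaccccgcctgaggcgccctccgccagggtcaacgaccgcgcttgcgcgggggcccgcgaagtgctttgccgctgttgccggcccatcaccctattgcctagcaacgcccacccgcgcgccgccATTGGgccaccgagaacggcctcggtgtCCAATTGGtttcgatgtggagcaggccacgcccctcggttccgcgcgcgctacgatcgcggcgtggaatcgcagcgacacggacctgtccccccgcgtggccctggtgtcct
Elovl6, chr3:129532136-129532435, plus strand: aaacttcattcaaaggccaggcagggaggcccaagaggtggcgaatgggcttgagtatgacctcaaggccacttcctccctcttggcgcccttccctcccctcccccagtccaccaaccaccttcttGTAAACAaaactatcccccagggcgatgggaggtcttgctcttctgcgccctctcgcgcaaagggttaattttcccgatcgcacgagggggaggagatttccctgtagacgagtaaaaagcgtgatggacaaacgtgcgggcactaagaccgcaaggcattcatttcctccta
The Elovl6 window held the single match to GTAAACA among the 14, with its first base at -123, counted so that -1 is the base before the start. Of 32851 mouse windows of this length, 3.65% held it. The Srebf1 window shown had 3 GC boxes and the Me1 window 4, and 35.7% of all windows held at least 1. The Fasn and Thrsp windows had 3 and 2 CCAAT boxes, found in 37.4% of all windows, and in Fasn the box at -62 overlaps the one at -59. A sterol response element, searched as TCACNCCAC (1.24% of all windows), and an E-box, CACGTG (7.15%), each occurred once, at -136 and -98 of different Mlxipl windows. The nuclear receptor elements DR1 (0.0396% of all windows) and DR4 (0.0152%), repeats of AGGTCA with 1 or 4 bases between them, matched in none of the 14 windows. The search allowed no changed base in a repeat, so looser copies would be missed. These are matches of letters and not measured binding.

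Across 19 comparisons the 10 genes gave 30 calls, a call being a limma adjusted p under 0.05 over all 10551 genes. Me1 was called 7 times, Scd1 5 times, Acaca and Thrsp 4 times each, Srebf1 and Fasn 3 times each, Elovl6 and Acly 2 times each, and Mlxipl and Pklr 0 times. A change is given as a log2 fold change, knockout over WT or HFD over RD, with its SE; it was taken on log2(TPM + 1), a scale that understates the change of weakly expressed genes. On the regular diet the number called was 1 for LFKO against WT livers (1.67% of all genes were called), 3 for LPKO against WT (5.85%), 2 for LFPKO against WT (7.45%), 1 for LFPKO against LFKO (5.08%) and 0 for LFPKO against LPKO (0.123%). With high-fat feeding it was 2 for LFKO against WT (13.5%), 1 for LPKO against WT (4.73%), 0 for LFPKO against WT (3.09%), 2 for LFPKO against LFKO (10.6%) and 0 for LFPKO against LPKO (0.351%). Between diets it was 5 in WT (30.8%), 3 in LFKO (9.45%), 2 in LPKO (18.1%) and 6 in LFPKO livers (26.3%). Where 0 were called, the members with an unadjusted limma p under 0.05 numbered 0 for LFPKO against LPKO on the regular diet, 2 for LFPKO against WT and 3 for LFPKO against LPKO on the high-fat diet.

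**Figure D1:**
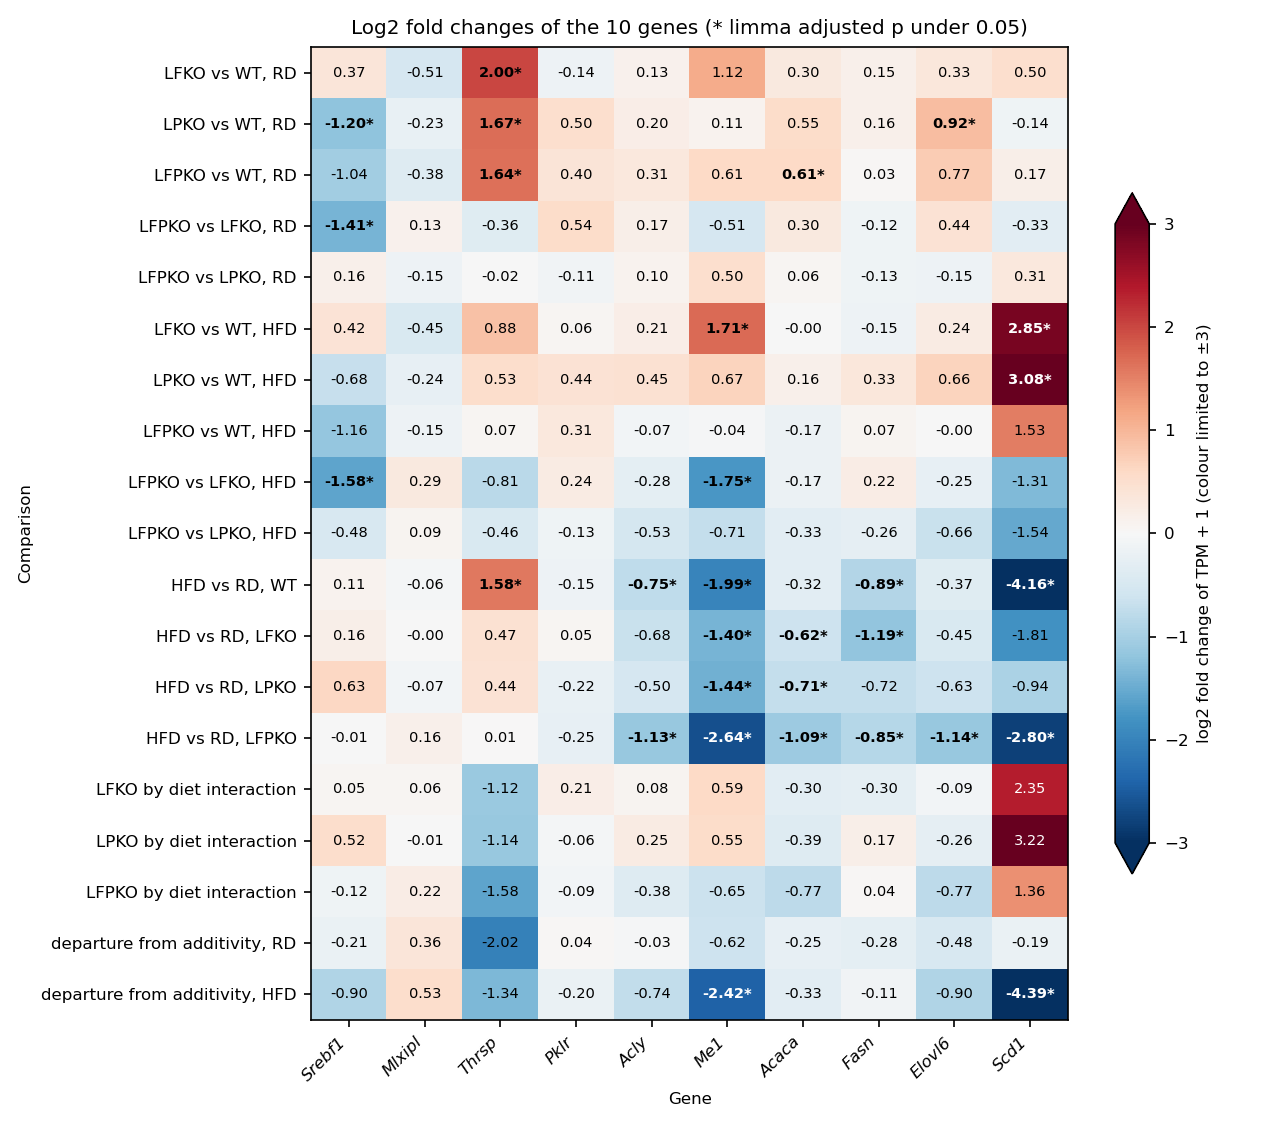
Log2 fold changes of the 10 genes (columns, regulators first, Scd1 last) in the 19 comparisons (rows); colour gives the size, limited to ±3, and an asterisk marks a limma adjusted p under 0.05. The deepest blue is Scd1 in the diet comparison of WT livers, at -4.16, and in the departure from additivity on the high-fat diet, at -4.39.

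Srebf1 (ENSMUSG00000020538.15, chromosome 11, 60199089 to 60222581, minus strand; positions here are GRCm38, GENCODE M21) had its lowest levels in livers labelled as lacking PPARα. RD libraries held it at 71.6, 67.1 and 89.1 TPM in LFKO livers, 24.8, 25.0 and 24.6 TPM in LPKO livers and 29.9, 27.8 and 25.9 TPM in LFPKO livers, against 40.4, 82.5 and 59.3 TPM in WT livers. All 6 LPKO and LFPKO libraries lay below all 6 LFKO and WT libraries; 10.1% and 12.4% of all genes were lower without overlap in RD LPKO and RD LFPKO than in RD WT livers. In HFD libraries it stood at 46.4, 113.7 and 114.5 TPM in LFKO livers, 35.6, 47.4 and 34.7 TPM in LPKO livers and 16.9, 32.5 and 38.0 TPM in LFPKO livers, against 90.1, 39.7 and 69.8 TPM in WT livers. Here LFPKO lay below WT in every library, as it did for 4.94% of all genes, while LPKO and WT overlapped (-0.68 ± 0.33 for LPKO against WT, limma adjusted p = 0.264). Srebf1 was not called between diets in any genotype, with differences of -0.01 to 0.63. The LPKO difference of 0.63 was 0.88 after scaling (adjusted p = 0.0545) and was called with only those groups in the fit (adjusted p = 0.0318). Over both diets the 12 libraries labelled LPKO or LFPKO ranged from 16.9 to 47.4 TPM and the other 12 from 39.7 to 114 TPM.

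Srebf1 fell in LPKO against WT livers on the regular diet (-1.20 ± 0.33, limma adjusted p = 0.0366). In LFPKO against LFKO livers it fell on the regular diet (-1.41 ± 0.33, limma adjusted p = 0.0146) and on the high-fat diet (-1.58 ± 0.33, limma adjusted p = 0.00369). Against WT, LFPKO livers missed the threshold on the regular diet (-1.04 ± 0.33, limma adjusted p = 0.0633) and on the high-fat diet (-1.16 ± 0.33, limma adjusted p = 0.0643), and both passed after scaling (-1.05 with adjusted p = 0.0134, and -1.25 with adjusted p = 0.00653). The LPKO call held without RD WT replicate 1 (-1.46) and was lost without any of the 5 other RD LPKO and RD WT libraries (-1.21 to -0.95, adjusted p 0.080 to 0.18). The LFPKO against LFKO call on the regular diet was lost without RD LFKO replicate 3 (-1.29, adjusted p = 0.077) or RD LFPKO replicate 3 (-1.36, adjusted p = 0.070), and the one on the high-fat diet held without any single library and was lost with only those groups in the fit (adjusted p = 0.0921). The LPKO call was lost without the filter on low values too (adjusted p = 0.0871). In LFKO against WT livers on the high-fat diet the difference was 0.42 ± 0.33 (limma adjusted p = 0.400) and 0.18 after scaling; without HFD LFKO replicate 1, the low library, it was 0.85 (adjusted p = 0.0466). Kupffer cell markers, 10 of 10 tested, summed to 88.3 to 123 TPM in RD LPKO livers and 156 to 251 TPM in RD WT livers; their part in these results was not tested. In bulk tissue, fewer cells of a type and less RNA per cell cannot be told apart.

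Mlxipl (ENSMUSG00000005373.13, chromosome 5, 135089890 to 135138382, plus strand) ranged from 47.8 to 137 TPM over the 24 libraries and was called in 0 of 19 comparisons, with 0 at an unadjusted limma p under 0.05. In RD LFKO livers it was 73.8, 58.7 and 82.6 TPM, against 56.3, 134 and 137 TPM in RD WT livers. The WT library at 56.3 TPM, replicate 1, lay below all 3 LFKO libraries, and the difference of -0.51 ± 0.30 had a 95% interval of -1.13 to 0.12. That WT library was also the lowest of its group for Fasn, Acaca, Acly, Thrsp, Srebf1, Elovl6, Pklr and, by a small margin, Scd1 (1074 TPM against 1104 and 1807 TPM). It was not the lowest for Me1.

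Thrsp (ENSMUSG00000035686.8, chromosome 7, 97412938 to 97417730, minus strand), which encodes Spot 14, a thyroid hormone-responsive protein that promotes lipogenesis, was higher in all 3 knockouts than in WT livers on the regular diet. It stood at 376, 422 and 529.7 TPM in LFKO livers, 186.4, 483 and 466 TPM in LPKO livers and 315, 240.2 and 529.5 TPM in LFPKO livers, against 55.4, 185.8 and 124 TPM in WT livers. No knockout library overlapped the WT range, LPKO replicate 1 by a narrow margin; of all genes, 19.4%, 19.2% and 16.9% were higher without overlap in LFKO, LPKO and LFPKO livers. The mean was 3.63-fold, 3.11-fold and 2.97-fold that of WT in LFKO, LPKO and LFPKO livers. The log2 fold change was 2.001 ± 0.45 in LFKO (limma adjusted p = 0.0278), 1.67 ± 0.45 in LPKO (adjusted p = 0.0331) and 1.64 ± 0.45 in LFPKO livers (adjusted p = 0.0302). All 3 comparisons share the same 3 WT libraries, and all 3 calls were lost without the filter on low values (adjusted p 0.0670 to 0.0821). With only the compared groups in the fit the LPKO and LFPKO calls were lost (adjusted p = 0.107 and 0.0835). Without RD WT replicate 1, at 55.4 TPM, the 3 values were 1.52, 1.19 and 1.16, and none was called (adjusted p 0.097 to 0.17). The LFKO call held without RD WT replicate 2 (2.38) and was lost without each of the other libraries (1.52 to 2.11). The LPKO call held without RD WT replicate 2 or RD LPKO replicate 1 (2.05 and 2.12) and the LFPKO call without RD WT replicate 2 or RD LFPKO replicate 2 (2.03 and 1.90), and both were lost without each of the others (1.19 to 1.76 for LPKO, 1.16 to 1.74 for LFPKO). Hepatocyte markers summed to 95690 to 102512 TPM in RD LFKO livers and 74563 to 77527 TPM in RD WT livers. Of these 10 markers 0 were called (1.67% of all genes were), with log2 fold changes of -0.62 to 0.53 (median 1.4e-04). Their part was not tested.

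On the high-fat diet Thrsp stood at 637, 621 and 560 TPM in LFKO livers, 619, 564 and 303 TPM in LPKO livers and 565, 447 and 161 TPM in LFPKO livers, against 300.1, 392 and 299 TPM in WT livers. The LFKO range lay above the WT range, as it did for 24.6% of all genes, and the other ranges overlapped it. No difference was called (LFKO 0.88 ± 0.45, limma adjusted p = 0.187; adjusted p = 0.0302 with only those groups in the fit). WT livers had more Thrsp on the high-fat diet than on the regular diet (1.58 ± 0.45, limma adjusted p = 0.0164). The call was lost without HFD WT replicate 2 (1.45, adjusted p = 0.079) or RD WT replicate 1 (1.10, adjusted p = 0.066) and stood after scaling (1.92, adjusted p = 0.0174). In the knockouts the diet difference was 0.47 ± 0.45 in LFKO, 0.44 ± 0.45 in LPKO and 0.01 ± 0.45 in LFPKO livers, none called. The tests of whether a knockout's diet response differed from that of WT gave limma adjusted p of at least 0.478 for Thrsp.

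**Figure D2:**
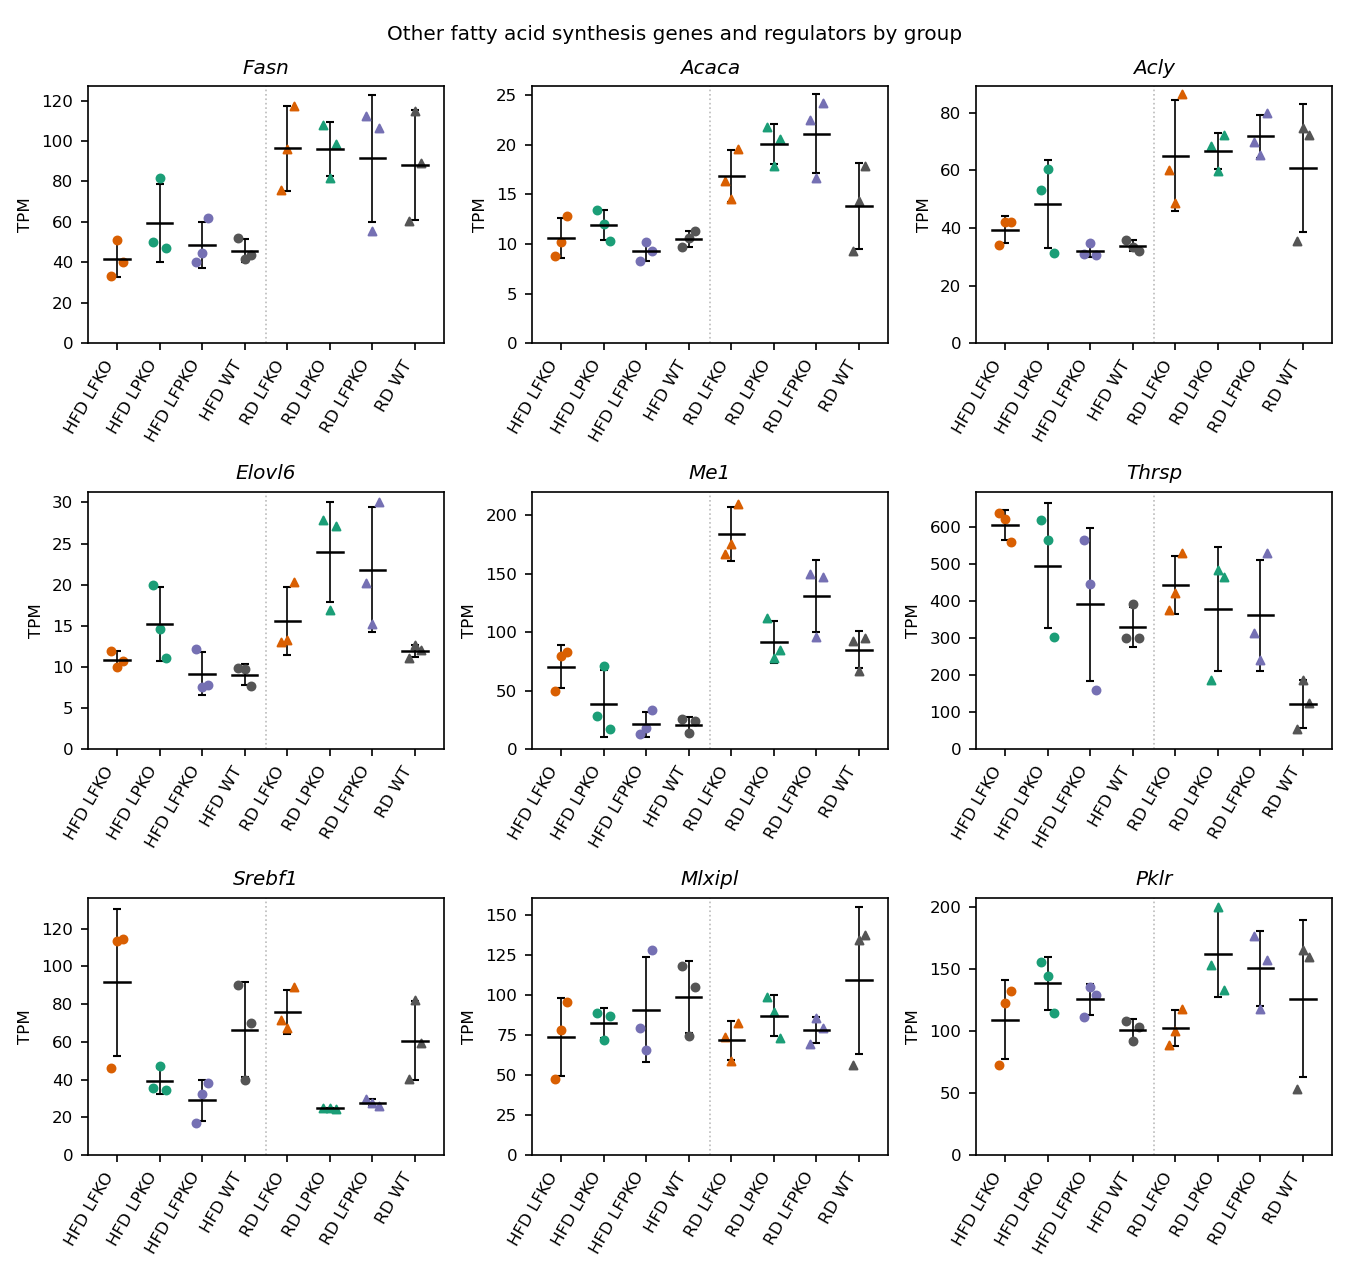
TPM of the 9 genes other than Scd1 in each library (HFD circles, RD triangles), with the group mean as a line and the SD as a bar (n = 3). Srebf1 is low in the green and purple groups labelled LPKO and LFPKO, Thrsp is lowest in RD WT livers, and Me1 is lower in every HFD group than in its RD group.

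Pklr (ENSMUSG00000041237.12, chromosome 3, 89136142 to 89146784, plus strand) encodes the liver pyruvate kinase of the last step of glycolysis. It ranged from 53.6 to 199.8 TPM and, like Mlxipl, was called in 0 of 19 comparisons, with 0 at an unadjusted limma p under 0.05. The lowest value was RD WT replicate 1 and the highest RD LPKO replicate 2. Without RD WT replicate 1 it would have been called in WT livers, lower on the high-fat than on the regular diet (-0.68, adjusted p = 0.0285), against -0.15 ± 0.31 with all libraries and 0.18 after scaling. RD LPKO livers, at 153, 199.8 and 133 TPM, against 53.6, 166 and 159 TPM in RD WT livers, gave 0.50 ± 0.31.

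Acly (ENSMUSG00000020917.17, chromosome 11, 100476353 to 100528000, minus strand) was called between diets and in no comparison of genotypes. It stood at 31.0, 34.6 and 30.6 TPM in HFD LFPKO livers, against 69.9, 65.5 and 80.0 TPM in RD LFPKO livers, and at 36.0, 33.4 and 32.1 TPM in HFD WT livers, against 35.4, 74.9 and 72.4 TPM in RD WT livers. The LFPKO ranges were apart, as for 38.0% of all genes, and the WT ranges overlapped through RD WT replicate 1. Acly fell in LFPKO livers (-1.13 ± 0.25, limma adjusted p = 0.00263; -0.87 with adjusted p = 0.0111 after scaling), and this held without any single library. In WT livers it fell by 0.75 ± 0.25 (limma adjusted p = 0.0283), and after scaling the value was -0.42 (adjusted p = 0.252). That call was also lost without the filter (adjusted p = 0.0612), with only those groups in the fit (adjusted p = 0.0696), without HFD WT replicate 2 or 3 (-0.75 and -0.72) or RD WT replicate 2 or 3 (-0.57 and -0.59). In LFKO and LPKO livers the diet differences were -0.68 ± 0.25 and -0.50 ± 0.25 (limma adjusted p = 0.0871 and 0.147).

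Me1 (ENSMUSG00000032418.15, chromosome 9, 86581371 to 86695953, minus strand), the cytosolic malic enzyme that yields NADPH and pyruvate, was lower on the high-fat diet in all 4 genotypes and, on that diet, higher in LFKO than in WT livers. HFD libraries held it at 49.7, 79.4 and 82.9 TPM in LFKO livers, 28.5, 71.5 and 17.3 TPM in LPKO livers and 12.9, 17.8 and 33.4 TPM in LFPKO livers, against 25.6, 13.7 and 23.9 TPM in WT livers. The LFPKO range lay below the LFKO range, as it did for 17.0% of all genes. The LFKO range also lay above that of WT, as for 24.6% of all genes, and LPKO replicate 2 stood far from the other LPKO libraries. Its RD values were 167, 175 and 210.1 TPM in LFKO livers, 112, 78.2 and 85.1 TPM in LPKO livers and 150.01, 96.0 and 147 TPM in LFPKO livers, against 92.8, 66.8 and 95.3 TPM in WT livers. All 3 RD LFKO libraries lay above the RD WT range, as for 19.4% of all genes. In each genotype the HFD libraries lay below the RD ones. Of all genes, 23.6%, 39.8%, 38.0% and 46.4% did so in LFKO, LPKO, LFPKO and WT livers.

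HFD LFKO livers had 3.35 times the mean Me1 of HFD WT livers (1.71 ± 0.38, limma adjusted p = 0.00973). The call was lost without HFD LFKO replicate 2 or 3 (1.61 and 1.58, adjusted p = 0.051 and 0.059) or HFD WT replicate 2 (1.44, adjusted p = 0.083). On the regular diet the difference of 1.12 ± 0.38 missed the threshold (limma adjusted p = 0.160; adjusted p = 0.0130 with only those groups in the fit). In HFD LFPKO livers the mean of Me1 was 3.31-fold lower than in HFD LFKO livers (-1.75 ± 0.38, limma adjusted p = 0.00493), and the call held without any single library. The diet change was -1.40 ± 0.38 in LFKO (limma adjusted p = 0.0271), -1.44 ± 0.38 in LPKO (adjusted p = 0.0159), -2.64 ± 0.38 in LFPKO (adjusted p = 1.57e-04) and -1.99 ± 0.38 in WT livers (adjusted p = 0.00177). Me1 was called in all 4 genotypes, also after scaling (-2.37 to -1.18). The LFPKO and WT calls held without any single library. The LFKO call was lost without the filter (adjusted p = 0.0664) and without RD LFKO replicate 1, 2 or 3 or HFD LFKO replicate 1 (-1.46 to -1.17). The LPKO call was lost with only those groups in the fit (adjusted p = 0.0690) and without RD LPKO replicate 1 (-1.28) or HFD LPKO replicate 3 (-0.99).

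Acaca (ENSMUSG00000020532.18, chromosome 11, 84129672 to 84401651, plus strand), whose enzyme commits acetyl-CoA to fatty acid synthesis, stood on the regular diet at 16.4, 14.5 and 19.6 TPM in LFKO livers, 21.8, 17.8 and 20.5 TPM in LPKO livers and 22.5, 16.6 and 24.2 TPM in LFPKO livers, against 9.24, 14.3 and 17.8 TPM in WT livers. All 12 HFD libraries lay between 8.30 and 13.4 TPM. The RD knockout ranges each overlapped the RD WT range, LPKO only barely (lowest LPKO library 17.8161 TPM, highest WT library 17.8171 TPM). Acaca rose in RD LFPKO against RD WT livers with a p at the threshold (0.61 ± 0.19, limma adjusted p = 0.0499). The call was lost with a pseudocount of 0.1, without the filter (adjusted p = 0.0976), with only those groups in the fit (adjusted p = 0.181) and without RD LFPKO replicate 1 or 3 (0.56 and 0.50) or RD WT replicate 1 or 2 (0.37 and 0.65). In LPKO livers the difference was 0.55 ± 0.19 (limma adjusted p = 0.0906; 0.50 with adjusted p = 0.0449 after scaling). With high-fat feeding Acaca was lower in LFPKO (-1.09 ± 0.19, limma adjusted p = 4.89e-04), LPKO (-0.71 ± 0.19, adjusted p = 0.0148) and LFKO livers (-0.62 ± 0.19, adjusted p = 0.0387), and in WT livers the difference was -0.32 ± 0.19 (adjusted p = 0.175), or -0.0028 after scaling (adjusted p = 0.995). The LFPKO call held without any single library; the LPKO call was lost after scaling (-0.46, adjusted p = 0.0735), without HFD LPKO replicate 3 (-0.62) and without RD LPKO replicate 1 or 3 (-0.65 and -0.69). The LFKO call held without HFD LFKO replicate 3 (-0.76) and was lost without each of the other 5 libraries (-0.72 to -0.51), without the filter (adjusted p = 0.0793) and with only those groups in the fit (adjusted p = 0.0835). Without RD WT replicate 1 the unscaled WT value was -0.56 (adjusted p = 0.0213).

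Fasn (ENSMUSG00000025153.9, chromosome 11, 120805846 to 120824547, minus strand) had no genotype call, and its group means on the regular diet lay between 88.2 and 96.4 TPM. Its HFD values were 33.4, 51.2 and 40.3 TPM in LFKO livers, 49.99, 81.6 and 46.9 TPM in LPKO livers and 40.1, 44.4 and 61.7 TPM in LFPKO livers, against 52.2, 41.4 and 43.7 TPM in WT livers. Its RD values were 75.6, 96.1 and 117 TPM in LFKO livers, 108, 81.7 and 98.6 TPM in LPKO livers and 112, 55.4 and 106 TPM in LFPKO livers, against 60.5, 115 and 89.1 TPM in WT livers. The HFD and RD ranges were apart in LFKO and WT livers, nearly touched in LPKO livers and overlapped in LFPKO livers. Of all genes, 23.6%, 46.4% and 39.8% were lower without overlap on the high-fat diet in LFKO, WT and LPKO livers. Fasn fell on the high-fat diet in LFKO (-1.19 ± 0.27, limma adjusted p = 0.0107), LFPKO (-0.85 ± 0.27, adjusted p = 0.0266) and WT livers (-0.89 ± 0.27, adjusted p = 0.0219), with -0.72 ± 0.27 in LPKO livers (adjusted p = 0.0708). After scaling the LFKO call stood (-1.05, adjusted p = 0.0105), and the LFPKO and WT values were -0.58 and -0.56 (adjusted p = 0.119 and 0.177). The LFKO call was lost without HFD LFKO replicate 1 (-1.05) or RD LFKO replicate 3 (-1.04). The LFPKO call was lost without the filter (adjusted p = 0.0651), with only those groups in the fit (adjusted p = 0.0860), without HFD LFPKO replicate 1 or 2 (-0.73 and -0.80) or RD LFPKO replicate 1 or 3 (-0.67 and -0.71), and the WT call without HFD WT replicate 2 (-0.82) or RD WT replicate 2 or 3 (-0.68 and -0.86).

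Elovl6 (ENSMUSG00000041220.10, chromosome 3, 129532355 to 129638495, plus strand) stood on the regular diet at 12.98, 13.3 and 20.3 TPM in LFKO livers, 27.9, 16.9 and 27.1 TPM in LPKO livers and 20.2, 15.2 and 30.1 TPM in LFPKO livers, against 11.1, 12.7 and 12.0 TPM in WT livers. All 9 knockout libraries lay above the WT range, a pattern that 19.4%, 19.2% and 16.9% of all genes showed in LFKO, LPKO and LFPKO livers. In HFD libraries it was 12.0, 9.93 and 10.7 TPM in LFKO livers, 20.0, 14.6 and 11.0 TPM in LPKO livers and 12.2, 7.56 and 7.85 TPM in LFPKO livers, against 9.84, 9.77 and 7.63 TPM in WT livers. Elovl6 rose in RD LPKO against RD WT livers, where its mean was 2.01 times as high (0.92 ± 0.24, limma adjusted p = 0.0276). The call held without RD LPKO replicate 2 (1.14) and was lost without each of the other 5 libraries (0.80 to 0.96, adjusted p 0.056 to 0.14) and without the filter (adjusted p = 0.0649). LFPKO livers gave 0.77 ± 0.24 against WT (limma adjusted p = 0.0583) and LFKO livers 0.33 ± 0.24 (adjusted p = 0.555). In LFPKO livers Elovl6 fell on the high-fat diet (-1.14 ± 0.24, limma adjusted p = 0.00233; -0.88 with adjusted p = 0.0279 after scaling), and the call held without any single library. The other diet differences were -0.63 ± 0.24 in LPKO, -0.45 ± 0.24 in LFKO and -0.37 ± 0.24 in WT livers, none called. After scaling they were -0.38, -0.32 and -0.05.

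Scd1 (ENSMUSG00000037071.3, chromosome 19, 44394455 to 44407879, minus strand) had its highest library at 160 times its lowest, against 16.3 times for Me1 and 2.82 times for Acly. That ratio rests on HFD WT replicate 2, and without that library it was 21.1 for Scd1 and 16.3 for Me1. In HFD libraries it stood at 292, 611 and 784 TPM in LFKO livers, 369, 1569 and 389 TPM in LPKO livers and 128, 171 and 413 TPM in LFPKO livers, against 141, 16.8 and 148 TPM in WT livers. The LFKO and LPKO ranges lay above the WT range, as they did for 24.6% of all genes in LFKO and 16.3% in LPKO livers. The LFPKO range overlapped the WT range, and WT replicate 2 was far below the other WT libraries. RD libraries held it at 1353, 1667 and 2698 TPM in LFKO livers, 1290.7, 1055 and 1180.4 TPM in LPKO livers and 1628, 981 and 1928 TPM in LFPKO livers, against 1074, 1104 and 1807 TPM in WT livers. There every group overlapped every other except LFKO and LPKO. From high to low the group means ± SD (n = 3) were 1906 ± 703 TPM in RD LFKO, 1513 ± 484 TPM in RD LFPKO, 1329 ± 415 TPM in RD WT, 1175 ± 118 TPM in RD LPKO, 776 ± 687 TPM in HFD LPKO, 562 ± 249 TPM in HFD LFKO, 237 ± 153 TPM in HFD LFPKO and 102 ± 73.8 TPM in HFD WT livers. Each group overlapped the next in this order. The other genes of its family were at most 2.21 TPM (Scd2), 0.109 TPM (Scd3) and 0.0788 TPM (Scd4) in any library; how reads of similar copies were divided is not known here.

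**Figure D3:**
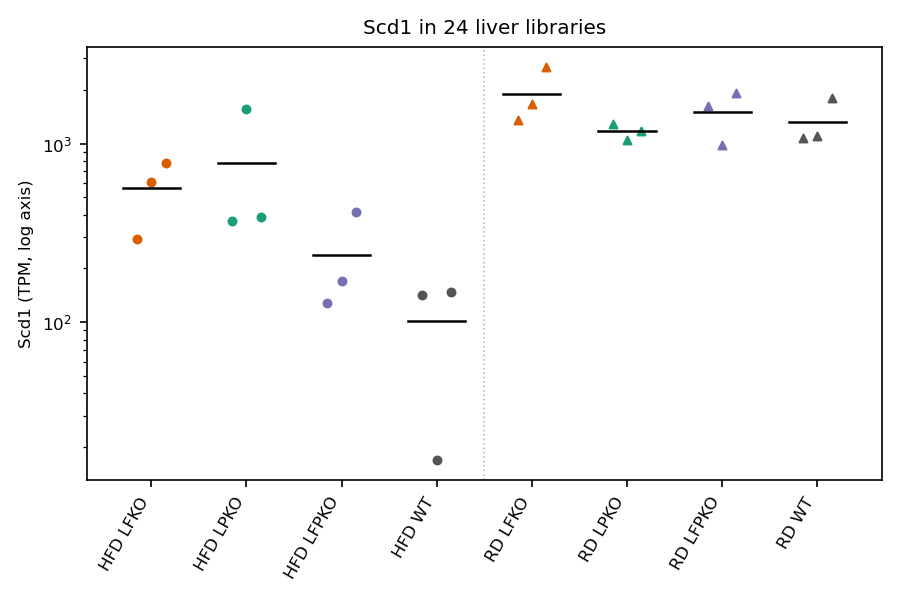
Scd1 TPM on a log axis in each of the 24 libraries (HFD circles, RD triangles), with the group mean as a line. The HFD WT libraries are at 141, 16.8 and 148 TPM and the RD libraries of all 4 genotypes at 981 TPM or more.

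Scd1 rose in HFD LFKO against HFD WT livers, to 5.51 times the WT mean (2.85 ± 0.66, limma adjusted p = 0.0118), and in HFD LPKO livers, to 7.61 times the WT mean (3.08 ± 0.66, limma adjusted p = 0.00848). HFD LFPKO livers were at 2.33 times the WT mean and were not called (1.53 ± 0.66, 95% interval 0.16 to 2.91, limma adjusted p = 0.281). The 3 comparisons share the HFD WT libraries. Without HFD WT replicate 2 the LFKO value was 1.84 (adjusted p = 0.092) and the LPKO value 2.07 (adjusted p = 0.062). The LFKO call was also lost without HFD LFKO replicate 2 or 3 (2.73 and 2.55), the LPKO call without HFD LPKO replicate 2 (2.40), and both with only the compared groups in the fit (adjusted p = 0.110 and 0.141). After scaling they stood (2.61 with adjusted p = 0.0200, and 2.95 with adjusted p = 0.00568). Stellate cell markers, 6 of 7 tested, summed to 103 to 109.5 TPM in HFD LFKO livers and 48.6 to 69.7 TPM in HFD WT livers. Of the 6 tested, 3 were called higher and 0 lower, beside 12.7% and 0.73% of all genes (2.55% and 1.72% after scaling). Hepatocyte markers summed to 70911 to 95529 TPM in HFD LFKO and 43074 to 56710 TPM in HFD WT livers. Of these 10, 2 were called higher and 0 lower, with the same shares of all genes beside them. The marker calls were not recomputed after scaling. The part of either cell type was not tested. Mup transcripts took 6.50% to 17.7% of the TPM in HFD LFKO livers, 12.5% to 26.1% in HFD LPKO livers and 20.1% to 30.7% in HFD WT livers. HFD LFKO replicates 2 and 3, which held more Scd1 and Me1 than replicate 1, also lay nearer the RD libraries on the first principal component. What this contributed was not tested. Between genotypes on the regular diet Scd1 was not called in any genotype, with 0.50 ± 0.66 in LFKO, -0.14 ± 0.66 in LPKO and 0.17 ± 0.66 in LFPKO against WT livers (unadjusted limma p 0.455 to 0.835).

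Setting the diets against each other shows how far each genotype moved with high-fat feeding. Of the 10 genes, 1 was higher (1.05% of all genes) and 4 were lower (29.8%) on the high-fat diet in WT livers, 3 were lower in LFKO (8.34%), 2 in LPKO (17.3%) and 6 in LFPKO livers (24.9%). The mean TPM of Scd1 was 13.03-fold lower in HFD WT than in RD WT livers (log2 fold change -4.16 ± 0.66, limma adjusted p = 3.93e-04). It was 6.38-fold lower in HFD LFPKO than in RD LFPKO livers (log2 fold change -2.80 ± 0.66, limma adjusted p = 0.00462). The log2 fold changes average libraries on the log scale and are not the logs of these ratios of means. Stellate cell markers summed to 48.6 to 69.7 TPM in HFD WT livers and 117 to 178 TPM in RD WT livers, with 5 of 6 tested lower. Of the hepatocyte markers 7 of 10 were lower. Beside these stand 29.8% of all genes, or 4.09% after scaling, for which the markers were not recomputed. The part of these cell types was not tested. Both Scd1 calls held without any single library, the WT value being -3.15 without HFD WT replicate 2, and after scaling (-3.82 and -2.52). In LFKO livers the change was -1.81 ± 0.66 (limma adjusted p = 0.0881; adjusted p = 0.0374 with only those groups in the fit) and in LPKO livers -0.94 ± 0.66 (limma adjusted p = 0.306). HFD LPKO replicate 2, at 1569 TPM, lay above all 3 RD LPKO libraries, while the other HFD LPKO libraries lay below them. Many genes moved down with the diet in WT livers, 111 being higher and 3139 lower, and the median of all genes was -0.29; after scaling 391 were higher and 432 lower. The members' median was -0.34 in WT livers, -0.54 in LFKO (all genes -0.11), -0.57 in LPKO (-0.22) and -0.97 in LFPKO livers (-0.23). After scaling, 1 member was higher and 2 were lower in WT livers (7.80% of all genes called), 3 were lower in LFKO (10.9%), 1 in LPKO (6.64%) and 5 in LFPKO livers (13.4%). The split of all genes also moved with scaling in LFKO livers (117 higher and 880 lower as deposited, 452 and 695 after), in LPKO livers (82 and 1828, then 317 and 384) and in LFPKO livers (142 and 2631, then 571 and 840).

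**Figure D4:**
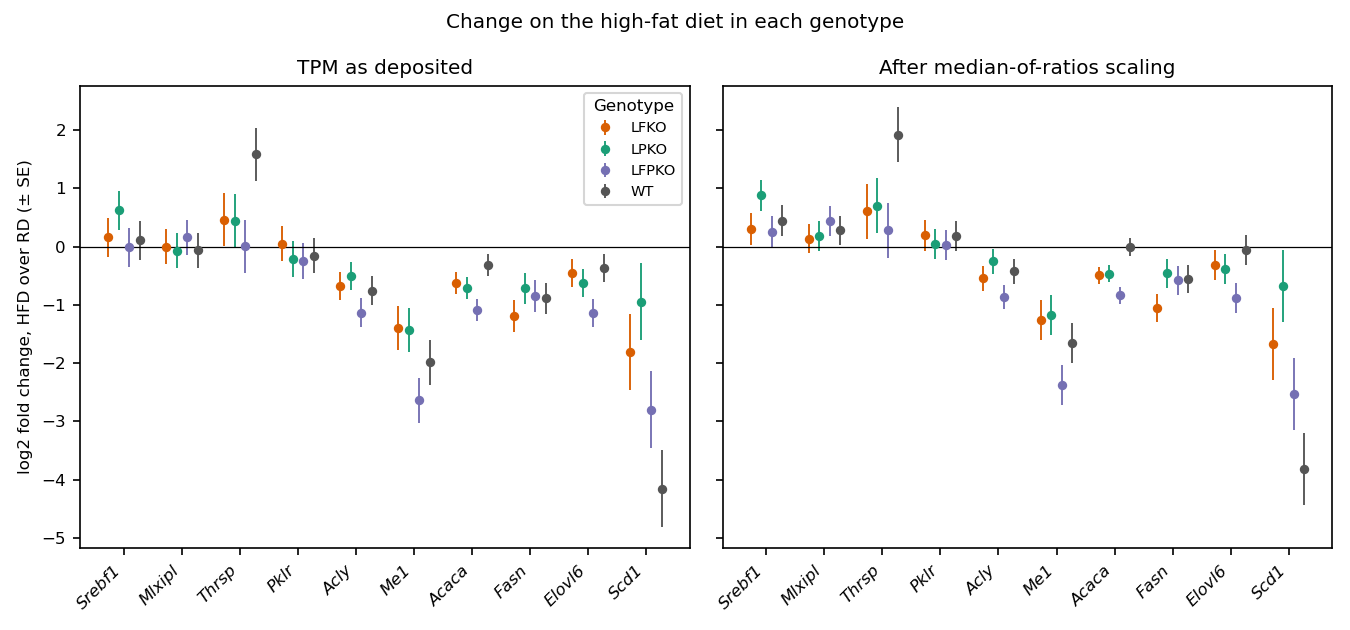
Log2 fold change ± SE of each gene, HFD over RD, in the 4 genotypes, from TPM as deposited (left) and after median-of-ratios scaling (right). Scd1 in WT livers lies lowest (-4.16, and -3.82 after scaling) and Thrsp in WT livers highest (1.58, and 1.92 after scaling).

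Within WT livers Scd1 and Thrsp moved in opposite directions with the diet. The ratio of Thrsp to Scd1 TPM, chosen after the values were seen, was 2.12, 23.3 and 2.03 in HFD WT livers and 0.0515, 0.168 and 0.0689 in RD WT livers. In LFKO livers the ratio was 0.714 to 2.18 in HFD and 0.196 to 0.278 in RD libraries. In LFPKO livers it was 0.390 to 4.41 in HFD and 0.193 to 0.275 in RD libraries. In LPKO livers the diets overlapped, at 1.68, 0.359 and 0.779 in HFD and 0.144, 0.458 and 0.395 in RD libraries. Scd1 made up 2.32% to 17.5% of the summed TPM of the 10 genes in HFD WT livers and 56.5% to 72.2% in RD WT livers.

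Whether a knockout's diet response differed from that of WT was tested as an interaction. None of the 10 genes was called in any of the 3 interactions with limma (0.00948% of all genes called for LFKO, 0.171% for LPKO and 0.0284% for LFPKO). Unadjusted p under 0.05 were found for 1 gene in LFKO, 1 in LPKO and 3 in LFPKO livers. For Scd1 the interaction was 2.35 ± 0.93 in LFKO (95% interval 0.40 to 4.29, limma adjusted p = 0.334), 3.22 ± 0.93 in LPKO (1.27 to 5.16, adjusted p = 0.229) and 1.36 ± 0.93 in LFPKO livers (-0.58 to 3.30, adjusted p = 0.797). Without HFD WT replicate 2 they were 1.34, 2.21 and 0.35. A smaller fall of Scd1 in the single knockouts was therefore not shown by this test.

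The departure from additivity asks whether the double knockout differs from WT by the sum of what both single knockouts show on the log2 scale. On the high-fat diet 2 of the 10 genes departed, both below the sum (11.2% of all genes were called, 10.5% below the sum, with a median of -0.24 over all genes). For Scd1 the LFKO, LPKO and LFPKO differences from WT were 2.85, 3.08 and 1.53, and the departure was -4.39 ± 0.93 (95% interval -6.33 to -2.45, limma adjusted p = 0.00729). For Me1 they were 1.71, 0.67 and -0.04, and the departure was -2.42 ± 0.54 (-3.54 to -1.29, limma adjusted p = 0.00981). Both held after scaling (-4.10 with adjusted p = 0.00916 for Scd1, -2.14 with adjusted p = 0.0143 for Me1) and without any single HFD library, Scd1 at -4.91 to -3.38 and Me1 at -2.86 to -1.87. With only the 4 HFD groups in the fit both missed the threshold (adjusted p = 0.0768 and 0.0863). All genes split into 70 above and 1109 below the sum, and after scaling into 232 and 419. Scd1 in HFD LFPKO livers was not called against either single knockout (-1.31 ± 0.66 against LFKO, limma adjusted p = 0.215; -1.54 ± 0.66 against LPKO, adjusted p = 0.405). On the regular diet 0 of the 10 genes departed (0.256% of all genes called; 1 member, Thrsp, at an unadjusted limma p under 0.05), with Scd1 at -0.19 ± 0.93 and Thrsp at -2.02 ± 0.64 (limma adjusted p = 0.368).

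**Figure D5:**
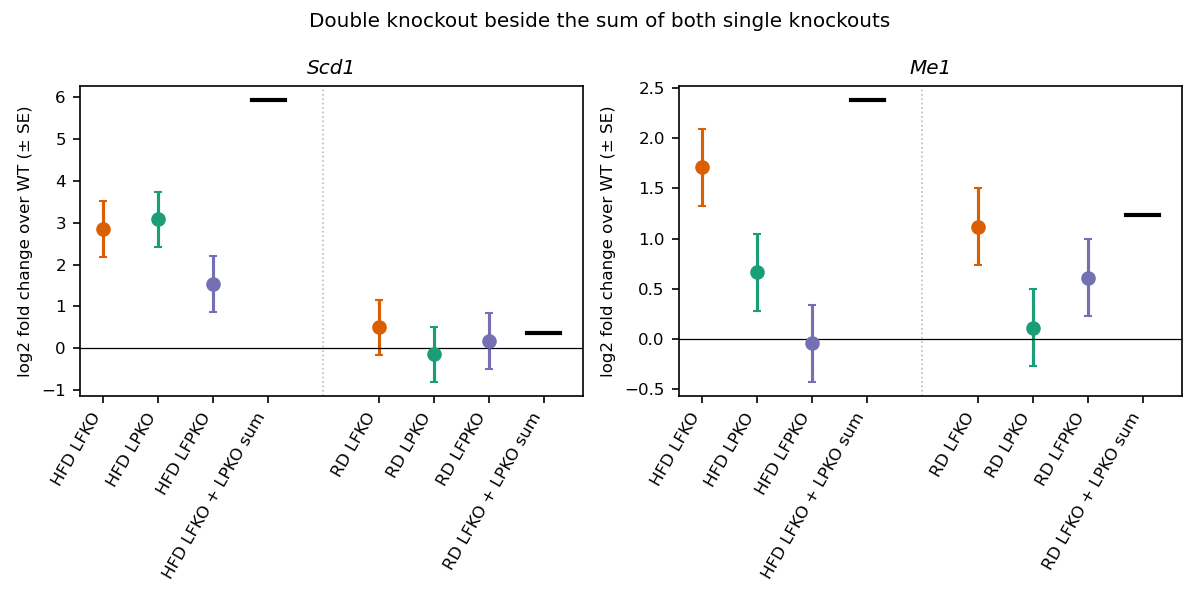
Log2 fold change ± SE of Scd1 (left) and Me1 (right) in LFKO, LPKO and LFPKO livers over WT on each diet; the black bar is the sum of both single knockouts. On the high-fat diet the double knockout lies below the sum, at 1.53 for Scd1 and -0.04 for Me1.

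Other genes of fatty acid synthesis, elongation, desaturation and activation were then counted, 19 of 21 tested. In HFD LFKO against HFD WT livers 8 rose and 0 fell (12.7% of all genes rose and 0.73% fell; median 0.54, all genes 0.21), and after scaling 4 rose and 0 fell. Among the 8 were the desaturases Fads1 (1.35 ± 0.19, limma adjusted p = 3.30e-04) and Fads2 (0.97 ± 0.24; 0.73 with adjusted p = 0.0805 after scaling) and the elongase Elovl5 (1.56 ± 0.31). In HFD LPKO livers 6 rose and 1 fell (3.60% and 1.13% of all genes; median 0.52, all genes 0.11), and after scaling 6 rose and 2 fell. There the acetyl-CoA synthetase Acss2 rose by 1.99 ± 0.28 (limma adjusted p = 1.78e-04) and the mitochondrial acetyl-CoA carboxylase Acacb by 1.96 ± 0.22 (adjusted p = 7.12e-06), while the elongase Elovl3 fell by 1.36 (adjusted p = 0.0176). HFD LFPKO livers had 1 that rose and 1 that fell (1.62% and 1.47% of all genes), Acacb (1.37 ± 0.22) and the elongation enzyme Hacd3 (-0.62 ± 0.11). On the regular diet 1 was higher and 1 lower in LFKO livers (1.07% and 0.597% of all genes). In LPKO livers 1 was higher and 2 lower (3.52% and 2.33%), and in LFPKO livers likewise 1 and 2 (4.00% and 3.45%). After scaling the counts were 2 and 1 in LFKO, 2 and 3 in LPKO and 4 and 3 in LFPKO livers. Elovl3 fell in all 3 (-1.80, -1.66 and -1.76). On the high-fat diet 12 were lower in WT (29.8% of all genes), 3 in LFKO (8.34%), 3 in LPKO (17.3%) and 9 in LFPKO livers (24.9%), and 0 were higher; after scaling 5, 3, 0 and 5 were lower. From additivity on the high-fat diet 12 departed below and 1 above (median -0.84, all genes -0.24), after scaling 8 and 1, with Fads1 at -2.13 ± 0.27 (limma adjusted p = 1.88e-04) and Elovl3 as the exception at 1.85 ± 0.46.

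Among 15 of 16 tested genes of the SREBP and ChREBP control system, Insig1, which retains SREBP in the endoplasmic reticulum and is itself an SREBP target, was higher in all 3 knockouts than in WT livers on the high-fat diet. It stood at 66.9, 64.6 and 68.6 TPM in LFKO livers, 93.4, 103 and 68.2 TPM in LPKO livers and 59.4, 65.4 and 69.4 TPM in LFPKO livers, against 32.3, 20.5 and 27.5 TPM in WT livers. No knockout library overlapped WT (24.6%, 16.3% and 11.1% of all genes were higher without overlap in LFKO, LPKO and LFPKO livers), and Insig1 rose in all 3 (1.31 ± 0.19, 1.69 ± 0.19 and 1.26 ± 0.19, limma adjusted p at most 5.14e-04). In WT livers it was lower on the high-fat diet (-2.05 ± 0.19, limma adjusted p = 1.73e-06). Srebf2, the cholesterol-directed relative of Srebf1, rose in HFD LFKO and HFD LPKO livers (0.71 ± 0.16 and 0.84 ± 0.16, limma adjusted p at most 0.00905). In all, 3 of the 15 rose in HFD LFKO, 3 in HFD LPKO and 2 in HFD LFPKO livers, and 0 fell, beside 12.7%, 3.60% and 1.62% of all genes that rose; after scaling 2, 3 and 2 rose. Of 14 genes of glucose uptake, glycolysis and NADPH supply, 1 rose in HFD LFKO livers, the cytosolic isocitrate dehydrogenase Idh1 (0.91 ± 0.13, limma adjusted p = 3.17e-04), which also rose in RD LFKO livers (0.71 ± 0.13, adjusted p = 0.00390). With high-fat feeding 7 of the 14 were lower in WT, 3 in LFKO, 7 in LPKO and 9 in LFPKO livers (29.8%, 8.34%, 17.3% and 24.9% of all genes), and after scaling 2, 4, 2 and 7. The pentose phosphate enzyme Tkt was lower in all 4 genotypes (-1.18 to -0.71), also after scaling (-0.91 to -0.46).

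Among the 10 genes the closest pairs over the 24 libraries were Acaca with Acly (Pearson's r = 0.905 of log2(TPM + 1), Spearman's rho = 0.851) and Scd1 with Me1 (r = 0.889, rho = 0.889). After each group's mean was taken out, r was 0.782 and 0.843 for these pairs. Elovl6 and Srebf1 were the least alike, with r = -0.413, and Scd1 and Thrsp gave r = -0.145. Of 10108 other genes, those nearest to Scd1 were Ugt1a5 (r = 0.944), Npc2 (0.937), Lipa (0.935), Rab10 (0.932) and Ccng2 (0.931). Nearest to the mean of the 10 genes were Pgd (r = 0.931), an enzyme of the pentose phosphate path that yields NADPH, Macroh2a1 (0.908), the glucose transporter gene Slc2a2 (0.898), Cdkl2 (0.897) and Slc17a4 (0.893). The 24 libraries fall into 8 groups and differ in their share of Mup transcripts, so these values are descriptions and were not tested.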

How the data were processed

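Gene-level TPM in 24 mouse liver libraries, 3 in each of 8 groups, were analysed. RNA was extracted with Trizol and made into stranded mRNA libraries with a TruSeq kit, per the labels' protocols. The authors deposited 1 table of TPM, made with kallisto and the builds GRCm38 and mm10, per the submitters' processing notes; its version, the annotation and any trimming are not stated in the sources used here. The TPM of a library summed to 956785 to 993524. A line with no gene name, 0.0104% to 0.0250% of the TPM, was left out.

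TPM keeps no counts, so depth is unknown and no counting interval is given. The test was limma 3.58.1 (R 4.3.3) on log2(TPM + 1), for the 10551 genes with a mean of at least 1 TPM, with a mean per group over all 24 libraries (16 residual degrees of freedom) and a variance trend with level. Two-sided p-values were adjusted by Benjamini-Hochberg over all genes within each of 19 comparisons, and calls are at an adjusted p under 0.05. An exact permutation test of 3 against 3 cannot go below 0.1. Intervals are 95%. Each result was recomputed without the filter, with 0.1 as the pseudocount, with a mean of at least 5 TPM, with median-of-ratios scaling, without 35 Mup and mitochondrial transcripts, with replicate number as a block, with the compared groups alone, and with each library left out. The procedure was tested on simulated data.

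The 10 genes, the pathway lists and the marker lists were chosen with earlier results of these data known, so none is independent evidence. Genes named by likeness are the 5 with the highest Pearson's r. Positions are from GENCODE M21 and promoter windows from RefSeq; figures were drawn with matplotlib 3.10.9.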

Additional observations from a re-analysis of the deposited data

Results flagged for a closer look

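Scd1 and Me1 on the high-fat diet were marked because the difference between LFPKO and LFKO livers was itself different from that between LPKO and WT livers, by a test of that difference. For Scd1 the LFPKO livers were -1.31 against LFKO and the LPKO livers 3.08 against WT, a difference of -4.39 (SE 0.93, limma adjusted p = 0.00729). For Me1 the same values were -1.75 and 0.67, a difference of -2.42 (SE 0.54, limma adjusted p = 0.00981). In this group of comparisons 11.2% of all genes were called. The Scd1 value was -3.38 without HFD WT replicate 2, whose Scd1 was 16.8 TPM. Groups of 3 libraries are too small for a check of single outlying libraries.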

How the results depend on the processing

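No member changed direction among its called results, and of 190 member comparisons, 30 of them called, the replicate block changed 0 calls, a mean of at least 5 TPM 0, a pseudocount of 0.1 lost 1, no filter lost 10, scaling lost 4 and gained 3, removal of Mup and mitochondrial transcripts lost 5 and gained 2, and a fit of the compared groups alone lost 12 and gained 5. The cause was not tested. Without some single library 19 of the 30 calls were lost and 11 held under every one left out, and 13 other comparisons gained a call. Depth is unknown, and groups of 3 limit the precision.

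With no filter the number of members called was 0 for LFKO, 0 for LPKO and 0 for LFPKO against WT livers on the regular diet (as reported 1, 3 and 2) and 1 between diets in LFKO livers (3). A pseudocount of 0.1 gave 1 for LFPKO against WT on the regular diet. With the compared groups alone it was 2 for LFKO against WT on the regular diet and 1 for LFPKO, where Thrsp and Acaca were lost and Srebf1 was called lower, 0 for LPKO against WT (1) and 1 for LFPKO against LFKO (2) on the high-fat diet, and 0 departures from additivity on that diet (2). Scaling and removal of Mup and mitochondrial transcripts each gave 1 for LFPKO against WT on the high-fat diet (0), 3 between diets in WT (5) and 1 in LPKO livers (2).

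Leaving out 1 library gave 0 to 1 for LFKO, 0 to 1 for LPKO and 0 to 3 for LFPKO against WT and 0 to 1 for LFPKO against LFKO on the regular diet. On the high-fat diet it gave 0 to 3 for LFKO, 0 to 2 for LPKO and 0 to 1 for LFPKO against WT, and 2 to 4 departures from additivity. Between diets it gave 2 to 6 in WT, 0 to 3 in LFKO, 0 to 3 in LPKO and 5 to 6 in LFPKO livers.

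Over 84 pairs, same-numbered libraries of different groups had a median r of -0.00437 between their deviations (-0.230 to 0.387). For differently numbered libraries it was 0.000728 (-0.378 to 0.250). Of 24 libraries, 9 correlated best with their own number. No general pairing by number was seen, and this check cannot exclude that some libraries are paired. With the replicate block the counts equalled those reported, 5 between diets in WT livers and 2 departures on the high-fat diet among them. The scaled counts of the pathway lists and the Scd1 range without HFD WT replicate 2 were chosen after seeing the data. For all genes, scaling moved the split of higher and lower calls on the high-fat diet to 269 and 181 for LFKO against WT (1343 and 77 as deposited), 388 and 339 for LPKO (380 and 119), 236 and 346 for LFPKO (171 and 155) and 490 and 657 for LFPKO against LFKO (195 and 922).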

Other observations

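Of the results not called with all libraries, 13 would be called without 1 library. Srebf1 in HFD LFPKO against HFD WT livers reached -1.49 without HFD WT replicate 2 (adjusted p = 0.0227) and Elovl6 in RD LFPKO against RD WT livers 0.99 without RD LFPKO replicate 2 (adjusted p = 0.0244). Fasn between diets in LPKO livers reached -0.97 without HFD LPKO replicate 2 (adjusted p = 0.0292), the library that also held the highest Scd1 and Me1 of its group.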
